A study of Mus musculus with 2 samples.

Results

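The cells described here are the 91 non-cycling B16F0 melanoma cells that the submitters' cell table calls Kdm5b high, set against the 1080 non-cycling B16F0 cells it calls Kdm5b low. Members were taken from the table's columns for line, cycling class and Kdm5b class, and together they make 1171 of the 2582 cells of the B16F0 library and of the 4156 cells of the series. Kdm5b high cells were 7.77% of the non-cycling B16F0 cells. B16F0 is labelled the parental line of the mouse melanoma B16, and B16F10 its highly metastatic subclone. Both are cultured lines with no treatment named in the labels, and messenger RNA of single cells was counted by unique molecular identifiers (UMIs) with a droplet method that reads the 3' end of each transcript. Each line was 1 library, so there is no replicate check and no p-value is given, and each interval covers counting error only.

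Kdm5b encodes a histone demethylase that removes methyl groups from lysine 4 of histone H3, a mark of active promoters. In human melanoma, cells with much of this protein have been described as a slowly dividing fraction that can give rise to faster dividing cells, and they have been linked to mitochondrial respiration and drug tolerance. Kdm5b itself is left out of the results, because it defines the classes.

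The class label is a small difference in molecules. Kdm5b high cells held 1 to 8 Kdm5b UMIs each, and Kdm5b low cells held 0 to 3. Of the 91 Kdm5b high cells, 12 held 1 Kdm5b UMI and 40 held 2. Of the 1080 Kdm5b low cells, 694 held none, 327 held 1, 57 held 2 and 2 held 3. The same number of molecules fell in either class according to depth: with 1 Kdm5b UMI, the high cells had 10151 to 17266 UMIs in all, and the low cells 17202 to 80212. The submitters' natural log values of Kdm5b began at 0.415 in the high class and ended at 0.458 in the low class, and 9 high cells and 24 low cells lay in that overlap.

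Depth differed between the classes. The median was 30563 UMIs per cell in Kdm5b high cells and 33914.5 in Kdm5b low cells, with a total of 2867229 UMIs in high and 38322848 in low cells. Kdm5b high cells showed a median of 4713 genes, against 4999.5 in Kdm5b low cells. After each cell was thinned at random to 15638 UMIs, which left 82 Kdm5b high and 1048 Kdm5b low cells, the medians were 3467 genes in Kdm5b high and 3439 in Kdm5b low cells, so the order turned round and the gap shrank. Mitochondrially encoded transcripts took a median of 5.02% of the UMIs in Kdm5b high cells and 5.41% in Kdm5b low cells, and ribosomal protein transcripts 29.3% in high and 29.5% in low cells.

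Both classes carried the transcripts of the melanocyte lineage. Pmel, the fibril protein of the melanosome, stood at 1528 CPM (UMIs of the gene per 1000000 UMIs of the class) in Kdm5b high and 1376 CPM in Kdm5b low cells, and Sox10, the neural crest factor upstream of pigment genes, at 88.2 CPM in high and 84.4 CPM in low cells. Markers of other cell types were near the floor in both classes. The 10 fibroblast markers, of which 5 are in the count table, summed to 6.28 CPM in Kdm5b high and 7.02 CPM in Kdm5b low cells, with Col1a1 and Pdgfra at 0 in Kdm5b high cells. The 3 macrophage markers in the table, of 10 looked for, summed to 6.98 CPM in high and 10.8 CPM in low cells, and 1 keratinocyte marker of 10 to 0.349 CPM in high and 0.757 CPM in low cells. None of the 10 T and NK cell markers is among the genes of the table used here. The 4 endothelial markers in it, of 10, summed to 71.8 CPM in high and 68.2 CPM in low cells, of which Egfl7 made up 70.8 CPM in high and 67.6 CPM in low cells, while Pecam1 was at 0 in Kdm5b high cells. Among the non-cycling B16F0 cells, 1 barcode sequence also occurred in the B16F10 library, and it belonged to a Kdm5b low cell.

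The question asked of these cells is which transcripts accompany Kdm5b in cells that share a line and a cell cycle class. Few did by much. Of 2553 genes that reached 50 CPM in either class, 3 were at least 1.5-fold higher in Kdm5b high cells (0.118%), 3 were at least 1.5-fold lower (0.118%) and 2547 lay between. The genes at 1.5-fold higher were Maoa, Ero1l and Arfgef3, and those at 1.5-fold lower Ccl5, Rad54l and Nav1. Arfgef3 reached 50 CPM only in Kdm5b high cells, and Ccl5, Rad54l and Nav1 only in Kdm5b low cells. These genes passed the minimum only through the class where they were higher. At a looser log2 ratio of 0.32 either way, which is 25% higher or 20% lower, with 20 CPM as the minimum, 327 of 4836 genes (6.76%) were higher and 130 (2.69%) lower, and the median of all of them was a log2 ratio of 0.04. That balance depends on the scaling: with TMM factors, 181 genes were higher and 239 lower, and at 1.5-fold 1 was higher and 6 lower. With DESeq2 size factors the numbers were 191 higher and 232 lower at 0.32, and 1 higher and 5 lower at 1.5-fold. Cluster F10 of the cell table, which bears the name of the other line, held 4 of the Kdm5b high (4.40%) and 12 of the Kdm5b low cells (1.11%), and without them 1 gene was 1.5-fold higher, Maoa, and Ero1l had a log2 ratio of 0.58 and Arfgef3 one of 0.58.

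**Figure D1:**
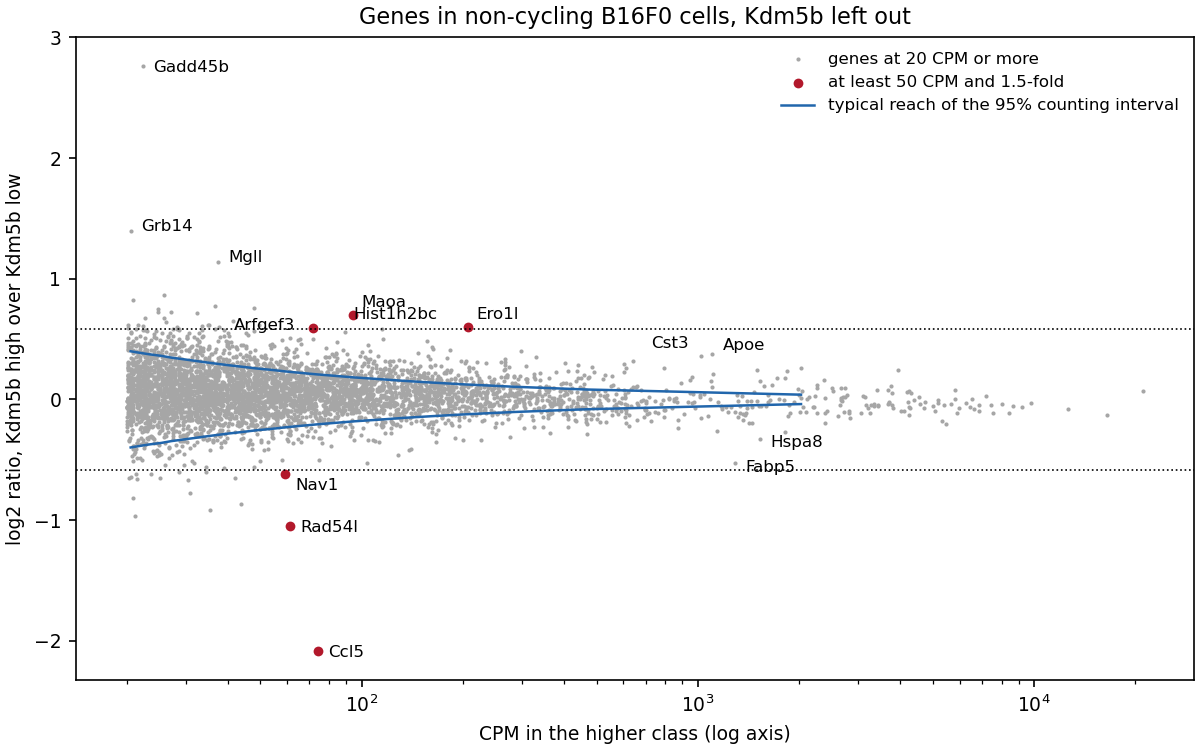
The log2 ratio of Kdm5b high over Kdm5b low cells for each gene with 20 CPM or more, against its CPM in the higher class on a log axis, where the blue lines give the typical reach of the 95% counting interval on either side of 0 and the dotted lines 1.5-fold. Most genes lie within the counting error of their level, and Gadd45b, at a log2 ratio of 2.76, and Ccl5, at -2.09, lie farthest out. The 268 genes at 500 CPM or more spread wider than their error. Its typical reach there is 0.049, and the 5th and 95th percentiles of their ratios are -0.18 and 0.19.

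Ero1l (chr14:45283087-45318771, minus strand, GRCm38), which encodes an oxidase that drives disulfide bond formation in the endoplasmic reticulum and is known to be induced by hypoxia, was the most abundant of the 6. It stood at 206.8 CPM in Kdm5b high cells (593 UMIs) and 136.7 CPM in Kdm5b low cells (5240 UMIs), a log2 ratio of 0.60 with a 95% interval of 0.47 to 0.72. The cell with the most Ero1l held 56 of the 593 UMIs, and without the top cell of each class the log2 ratio was 0.48, under 1.5-fold. That leaves out a larger share of the 91 high than of the 1080 low cells. Without the same share of top cells, 1 of the high and 12 of the low cells, the ratio was 0.55, also under 1.5-fold. After thinning, 84.1% of Kdm5b high cells (Clopper-Pearson 95% interval 74.4 to 91.3) and 75.1% of Kdm5b low cells (72.4 to 77.7) held an Ero1l UMI, with intervals that overlap, and before it 96.7% of high and 90.2% of low cells. No cell type without the gene was present to give a background share.

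Maoa (chrX:16619698-16687818, plus strand), the outer mitochondrial membrane enzyme that breaks down serotonin and other monoamines, stood at 94.5 CPM in Kdm5b high and 58.3 CPM in Kdm5b low cells, a log2 ratio of 0.70 (95% interval 0.51 to 0.88). Arfgef3 (chr10:18581839-18743949, minus strand), a member of a family of exchange factors for Arf proteins, stood at 71.5 CPM in high and 47.5 CPM in low cells, a log2 ratio of 0.59 (0.38 to 0.80). Both intervals exclude 0.

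Among the lower genes, Rad54l (chr4:116094264-116123690, minus strand), a DNA translocase of homologous recombination, stood at 29.7 CPM in Kdm5b high cells (85 UMIs) and 61.3 CPM in Kdm5b low cells (2349 UMIs), a log2 ratio of -1.05 (-1.38 to -0.74). After thinning, 20.7% of Kdm5b high cells (12.6 to 31.1) and 43.9% of Kdm5b low cells (40.9 to 47.0) held a Rad54l UMI, and before it 29.7% of high and 53.6% of low cells. Nav1 (chr1:135434580-135607295, minus strand), a microtubule-associated protein first described in neurons, stood at 38.7 CPM in high and 59.3 CPM in low cells, a log2 ratio of -0.61 (-0.90 to -0.34). Ccl5 (chr11:83525778-83530518, minus strand), a chemokine that attracts T cells, had the lowest ratio, at 17.4 CPM in Kdm5b high and 74.1 CPM in Kdm5b low cells, a log2 ratio of -2.09. Its molecules sat in few cells: 11 of 91 Kdm5b high and 109 of 1080 Kdm5b low cells held any, and 1 low cell held 514 of the 2838 low UMIs. Without the same share of top cells in each class, 1 of the high and 12 of the low cells, the ratio was -0.71.

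Depth was accounted for in several ways. When Kdm5b low cells were weighted to the depth distribution of the high cells, the log2 ratios were 0.56 for Ero1l, 0.73 for Maoa, 0.54 for Arfgef3, -1.10 for Rad54l and -0.67 for Nav1. In thinned cells they were 0.51, 0.79, 0.35, -1.09 and -0.59 in the same order. Without the 12 Kdm5b high cells that held a single Kdm5b UMI they were 0.55, 0.67, 0.58, -1.16 and -0.60. In thinned cells split by a Kdm5b UMI or none, whichever their class, they were smaller in size than the unadjusted ratios above. Only Arfgef3 was not smaller than in the thinned classes. The ratios were 0.38 for Ero1l, 0.20 for Maoa, 0.36 for Arfgef3, -0.44 for Rad54l and -0.11 for Nav1. With low cells weighted by depth and cluster at once they were 0.27, 0.50, 0.16, -0.33 and -0.55 in the same order.

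The 6 genes at 1.5-fold are among the 24 with the most extreme ratios. The other 18 of the 24 had smaller ratios. Higher in Kdm5b high cells were Hist1h2bc, Larp1b, Mycbp2, Ccnh, Prrc2c, Enah, Atg101, Ccser2 and Creg1, with log2 ratios between 0.49 and 0.58. Among them Ccnh, the cyclin of the kinase that activates other cyclin-dependent kinases, stood at 71.5 CPM in Kdm5b high and 50.4 CPM in Kdm5b low cells, and Enah, a regulator of actin filament growth, at 65.6 CPM in high and 46.5 CPM in low cells. Lower were Fabp5, Tm4sf1, Plod1, Hmga2, Car6, Ssbp4, Sh3glb2, AC160336.1 and Lmo1, with log2 ratios between -0.53 and -0.41. Hmga2, an architectural chromatin protein of embryonic and tumour cells, stood at 52.7 CPM in Kdm5b high and 74.6 CPM in Kdm5b low cells, and Lmo1, a LIM-only transcriptional cofactor, at 106.0 CPM in high and 140.6 CPM in low cells. With weighting by depth and cluster Car6 lay the other way, at 0.08. With cluster weighting Lmo1 had -0.20 and Enah 0.30, and in thinned cells Hmga2 had -0.27.

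Counting error was smallest among the 694 genes at 200 CPM or more, where 6 were higher (0.865%) and 4 lower (0.576%) past a log2 ratio of 0.32, a set chosen after the values were seen. With TMM factors or DESeq2 size factors 2 were higher and 9 lower. Beside Ero1l, the higher genes were Psmb5, a catalytic subunit of the proteasome (298.5 CPM in Kdm5b high and 226.4 CPM in Kdm5b low cells, log2 ratio 0.40), Apoe, the lipid carrier (1104 CPM in high and 852.2 CPM in low cells, 0.37), Cst3, Nupr1 and H1f0. Nupr1, a stress-induced chromatin protein, stood at 329.6 CPM in high and 258.1 CPM in low cells (0.35), and H1f0, the linker histone of cells that have stopped dividing, at 266.1 CPM in high and 211.0 CPM in low cells (0.33). Cst3, the protease inhibitor cystatin C, owed its place to 1 Kdm5b high cell with 991 of 2927 UMIs: without the top cell of each class it stood at 694.0 CPM in Kdm5b high and 786.5 CPM in Kdm5b low cells. Lower were Fabp5, a carrier of fatty acids (894.2 CPM in Kdm5b high and 1292 CPM in Kdm5b low cells, log2 ratio -0.53), Ccnd3, a D-type cyclin (158.0 CPM in high and 200.1 CPM in low cells, -0.34), Mrps21, a mitochondrial ribosomal protein (178.9 CPM in high and 226.3 CPM in low cells, -0.34), and Hspa8, the constitutive Hsp70 chaperone (1216 CPM in high and 1528 CPM in low cells, -0.33). With cluster weighting Psmb5 had a log2 ratio of 0.20, Apoe 0.17, H1f0 0.27, Ccnd3 -0.27, Mrps21 -0.26 and Hspa8 -0.22, all short of 0.32. In thinned cells H1f0 had 0.11, Apoe 0.28, Nupr1 0.30, Ccnd3 -0.27, Mrps21 -0.27 and Hspa8 -0.23.

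The classes were spread differently over the clusters and trajectory states that the submitters had assigned. Cluster C3 held 67.0% of Kdm5b high cells (61 of 91, 95% interval 56.4 to 76.5) and 47.0% of Kdm5b low cells (508 of 1080, 44.0 to 50.1). Cluster C1 held 30.8% of Kdm5b high and 52.7% of Kdm5b low cells. Trajectory state 7 held 58.2% of Kdm5b high cells (53 of 91) and 35.3% of Kdm5b low cells (381 of 1080), while state 6 held 34.1% of high and 48.7% of low cells. The median pseudotime was 14.81 in Kdm5b high and 13.23 in Kdm5b low cells. Weighting the low cells by depth left the excess in C3 at 20.3 percentage points, against 19.996 without it, and that in state 7 at 21.3, against 22.96. When the thinned cells were split by a Kdm5b UMI or none, the excess of cells with a UMI was 12.6 points in C3 and 16.2 in state 7. The sources used here do not describe how the clusters and states were made, or whether Kdm5b entered them.

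**Figure D2:**
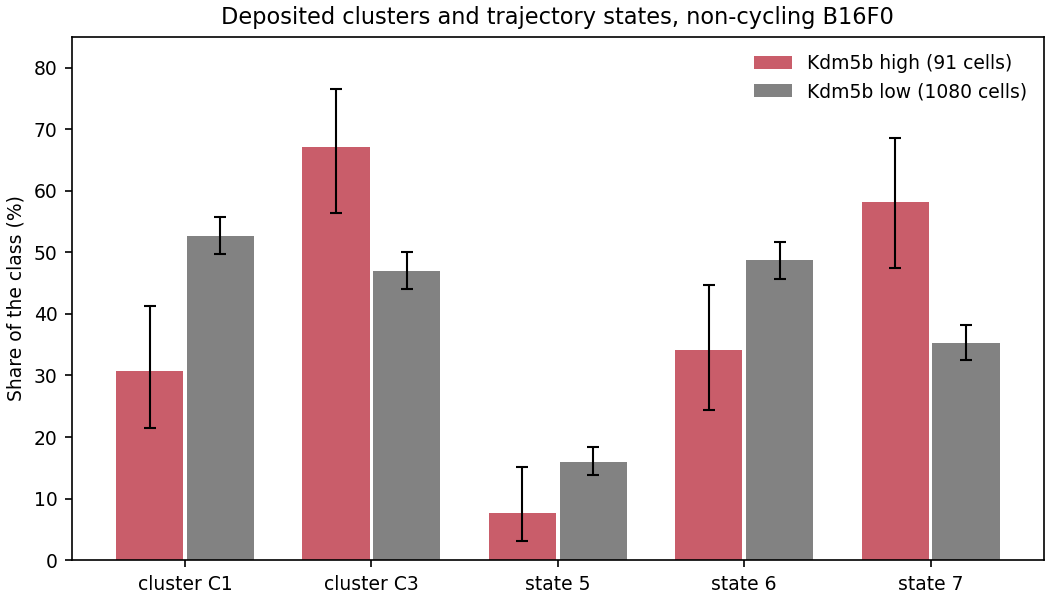
Share of Kdm5b high (91 cells, left bar of each pair) and Kdm5b low cells (1080 cells, right bar) in the 2 main clusters and in trajectory states 5, 6 and 7, with Clopper-Pearson 95% intervals. Kdm5b high cells are more often in C3 (67.0% against 47.0% of low cells) and in state 7 (58.2% against 35.3% of low cells).

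Several of the leading genes differ between C3 and C1 within the Kdm5b low cells alone. Rad54l stood at 4.80 CPM in low cells of C3 and 112.3 CPM in those of C1, Arfgef3 at 80.3 CPM in C3, against 17.9 CPM in C1, Ero1l at 205.4 CPM in C3, against 74.8 CPM in C1, and Fabp5 at 808.2 CPM in C3, against 1728 CPM in C1. When the low cells were weighted to the clusters of the high cells, the Kdm5b high over low log2 ratio was -0.37 for Rad54l, 0.24 for Arfgef3, 0.32 for Ero1l, -0.29 for Fabp5 and 0.50 for Maoa, and no gene stayed at 1.5-fold higher. Within C3, Ero1l stood at 260.3 CPM in 61 Kdm5b high cells and 205.4 CPM in 508 Kdm5b low cells (log2 ratio 0.34, 0.21 to 0.47), and Maoa at 114.1 CPM in high and 79.0 CPM in low cells (0.53, 0.32 to 0.73). Within C1, with 28 high and 569 low cells, Ero1l stood at 81.4 CPM in high and 74.8 CPM in low cells (0.12, -0.25 to 0.47), and Rad54l at 95.6 CPM in high and 112.3 CPM in low cells (-0.23, -0.57 to 0.09). Both C1 intervals include 0. Nav1 kept more of its ratio, at -0.50 after cluster weighting.

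Gene lists ranged from a median log2 ratio of -0.20 to 0.40 over members with at least 20 CPM. The hypoxia response list, made of genes that the oxygen-sensitive HIF factors induce, had the highest median, at 0.40, against 0.04 over all genes. All 8 of its members at that level had a ratio above 0, and 5 of 8 were past 0.32, against the 6.76% of all genes given above. Of the 5, Mxi1 and Kdm3a reached 20 CPM only in Kdm5b high cells, so they entered through the class where they were higher. The other 9 members in the table were below 20 CPM in both classes, and Ca9, listed beside its mouse symbol Car9, matched no row.

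Ndrg1, a stress-induced growth regulator, stood at 35.2 CPM in Kdm5b high and 22.99 CPM in Kdm5b low cells, a log2 ratio of 0.62 (95% interval 0.30 to 0.91). Bnip3 and Bnip3l, mitochondrial outer membrane proteins that mark mitochondria for autophagy, stood at 40.1 CPM in high and 27.4 CPM in low cells (0.55, 0.26 to 0.83) and at 161.5 CPM in high and 119.2 CPM in low cells (0.44, 0.30 to 0.58). Mxi1, an antagonist of Myc, stood at 21.97 CPM in high and 15.3 CPM in low cells (0.52, 0.12 to 0.90), and Kdm3a, a histone H3 lysine 9 demethylase, at 21.6 CPM in high and 16.9 CPM in low cells (0.36, -0.04 to 0.73). The remaining members, with ratios between 0.25 and 0.28, were Higd1a, a protein of the respiratory chain, P4ha1, a collagen prolyl hydroxylase, and Fam162a, a mitochondrial protein induced by HIF. For Kdm3a and P4ha1 the interval includes 0. In thinned cells Mxi1 had 0.13 and P4ha1 0.095, and without the top cell of each class Ndrg1 had 0.28 and Fam162a 0.11. The thinned values come from a single random draw with fewer molecules and carry no interval. Without the same share of top cells in each class Ndrg1 had 0.365 and Fam162a 0.22.

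HIF binds the letters ACGTG or GCGTG. Of the 8 members, 6 have promoters in the RefSeq table (GRCm38.p6, 250 bases before to 50 after the start), and 6 of their 10 promoters hold ACGTG on either strand, against 19.6% of the 32851 promoters in the table. GCGTG is in 32.4% of all promoters, and one or the other in 43.8%. A match is a description of the letters and not a site. The members were picked as genes that HIF induces, so the share says nothing about Kdm5b high cells. Of the 3 Kdm3a promoters none holds ACGTG, and of the 3 Mxi1 promoters 2 do. The promoters of Bnip3 (chr7:138909457-138909756, minus strand), Fam162a (chr16:36071512-36071811, minus strand), Higd1a (chr9:121857747-121858046, minus strand) and P4ha1 (chr10:59323046-59323345, plus strand) are shown 5′ to 3′ because these members have 1 promoter each in the table. Capitals mark ACGTG and GCGTG on either strand, matches that overlap included, so CACGT and CACGC are the same letters on the other strand.
Bnip3: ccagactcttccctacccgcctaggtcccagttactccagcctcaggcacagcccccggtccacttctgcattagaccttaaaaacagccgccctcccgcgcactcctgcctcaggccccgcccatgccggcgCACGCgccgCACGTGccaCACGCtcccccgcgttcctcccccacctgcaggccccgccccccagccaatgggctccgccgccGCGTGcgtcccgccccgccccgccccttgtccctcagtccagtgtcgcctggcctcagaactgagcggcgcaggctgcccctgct
Fam162a: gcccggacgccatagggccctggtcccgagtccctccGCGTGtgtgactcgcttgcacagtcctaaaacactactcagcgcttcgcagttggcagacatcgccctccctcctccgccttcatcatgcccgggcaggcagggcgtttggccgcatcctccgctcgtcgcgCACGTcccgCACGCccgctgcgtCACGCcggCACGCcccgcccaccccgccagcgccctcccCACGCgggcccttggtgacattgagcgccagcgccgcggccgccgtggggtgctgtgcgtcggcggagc
Higd1a: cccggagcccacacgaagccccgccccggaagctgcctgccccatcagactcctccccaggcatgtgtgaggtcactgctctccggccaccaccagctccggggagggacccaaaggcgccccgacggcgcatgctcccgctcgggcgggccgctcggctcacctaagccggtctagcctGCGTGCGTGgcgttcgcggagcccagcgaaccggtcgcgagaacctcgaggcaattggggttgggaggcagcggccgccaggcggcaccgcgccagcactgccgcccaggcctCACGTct
P4ha1: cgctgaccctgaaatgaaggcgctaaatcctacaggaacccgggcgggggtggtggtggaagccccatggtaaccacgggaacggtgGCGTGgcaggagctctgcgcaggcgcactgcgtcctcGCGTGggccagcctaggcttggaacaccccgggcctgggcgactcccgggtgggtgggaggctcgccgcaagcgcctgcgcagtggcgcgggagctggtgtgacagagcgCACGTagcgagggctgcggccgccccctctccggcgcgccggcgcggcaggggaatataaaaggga
The Bnip3 window holds 2 ACGTG matches, which overlap as 1 palindrome, and 3 of GCGTG. Fam162a holds 1 and 5, Higd1a 1 and 2, and P4ha1 1 and 2.

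The summed level of the hypoxia list's 17 genes was higher in Kdm5b high cells at each quartile. The lower quartile was 593.8 CPM per cell in Kdm5b high and 529.8 CPM in Kdm5b low cells, the median 666.1 CPM in high and 637.7 CPM in low cells and the upper quartile 856.3 CPM in high and 778.5 CPM in low cells, and 58.2% of Kdm5b high cells lay above the low median. At the upper end, 11 of 91 Kdm5b high cells (12.1%, 95% interval 6.19 to 20.6) and 54 of 1080 Kdm5b low cells (5%, 3.78 to 6.47) exceeded 1500 CPM, a level chosen after the distributions were seen. The 90th percentile of Kdm5b low cells, 974.7 CPM, was passed by 13 of 91 Kdm5b high cells (14.3%, 7.83 to 23.2). That interval includes the 10% of low cells above it. Without the 5% of cells highest in the list in each class, the sums were 770.4 CPM in high and 651.3 CPM in low cells, which gives a log2 ratio of 0.24 (0.18 to 0.31). The median over the 8 members was then 0.34, with all 8 above 0. By cluster, the list summed to 1014 CPM in Kdm5b high and 754.5 CPM in Kdm5b low cells of C3 (log2 ratio 0.43, 0.36 to 0.49), and to 789.2 CPM in high and 754.5 CPM in low cells of C1 (0.06, -0.05 to 0.18). The C1 interval includes 0, and the difference between the clusters was not tested. In state 7 the sum was 1161 CPM in high and 810.5 CPM in low cells (0.52, 0.45 to 0.59), while in state 6 it was lower, at 651.9 CPM in high and 740.2 CPM in low cells (-0.18, -0.30 to -0.06). Ndrg1 stood at 37.7 CPM in high and 18.2 CPM in low cells of C3 and at 29.5 CPM in high and 27.2 CPM in low cells of C1.

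S phase genes stood at the other end, with a median log2 ratio of -0.20 over 14 members. Of the 14, 13 had a ratio below 0 and 6 were past -0.32, against 2.69% of all genes. The 6 were E2f1, the transcription factor that switches on S phase genes (13.6 CPM in Kdm5b high and 21.5 CPM in Kdm5b low cells, log2 ratio -0.66), Hells, a chromatin remodeller of replicating DNA (26.2 CPM in high and 38.9 CPM in low cells, -0.57), Ccne1, the cyclin of S phase entry (20.2 CPM in high and 29.6 CPM in low cells, -0.55), Mcm2, a subunit of the replicative helicase (41.2 CPM in high and 52.7 CPM in low cells, -0.36), Tipin, a replication fork protein (85.5 CPM in high and 107.9 CPM in low cells, -0.34), and Pcna, the sliding clamp of DNA polymerases (34.9 CPM in high and 43.7 CPM in low cells, -0.33). Their 6 intervals exclude 0. E2f1 reached 20 CPM only in Kdm5b low cells, and so entered the count through the class where it was higher. Both classes are called non-cycling in the cell table, and every one of their S and G2/M scores was at or below 0. Within that range the median S score was -0.19 in Kdm5b high and -0.17 in Kdm5b low cells, and the median G2/M score -0.26 in both. The G2 and M phase list had a median log2 ratio of -0.04 over 10 members, with 0 of 10 past 0.32 either way.

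The summed level of the S phase genes was lower in Kdm5b high cells at each quartile. The lower quartile was 365.6 CPM per cell in Kdm5b high and 406.6 CPM in Kdm5b low cells, the median 502.5 CPM in high and 626.5 CPM in low cells and the upper quartile 800.1 CPM in high and 1088 CPM in low cells, and 35.2% of Kdm5b high cells lay above the low median. It was lower within both clusters, at 611.1 CPM in high and 738.4 CPM in low cells of C3 (log2 ratio -0.27, -0.36 to -0.19) and at 697.2 CPM in high and 822.5 CPM in low cells of C1 (-0.24, -0.36 to -0.12). The list median lay between -0.34 and -0.17 over the alternatives run. Tipin had -0.24 in thinned cells and Pcna -0.31 with depth weighting, both short of -0.32, and Mcm2 had -0.31 with cluster weighting.

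**Figure D3:**
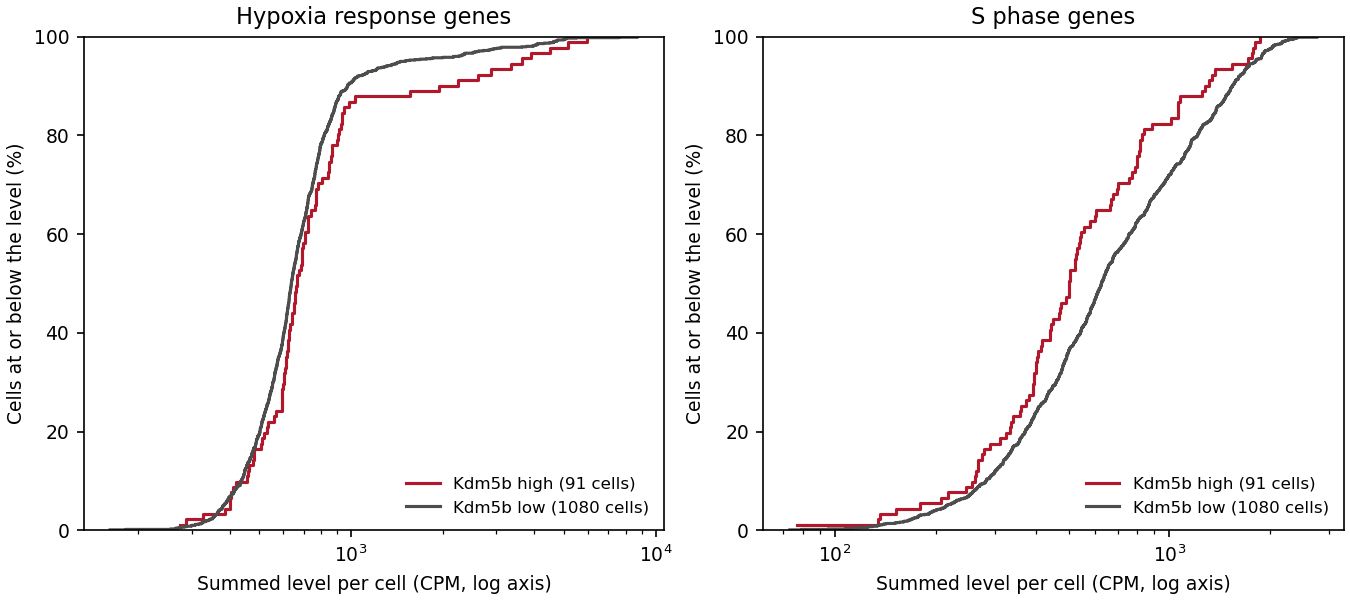
Cumulative share of cells (%) by the summed level of the hypoxia response genes (left) and the S phase genes (right) per cell, in CPM on a log axis, for Kdm5b high (91 cells) and Kdm5b low cells (1080 cells). The hypoxia medians are 666.1 CPM in Kdm5b high and 637.7 CPM in Kdm5b low cells, and 12.1% of Kdm5b high and 5% of Kdm5b low cells pass 1500 CPM. That level was chosen after the distributions were seen. The S phase medians are 502.5 CPM in Kdm5b high and 626.5 CPM in Kdm5b low cells.

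Genes that hold the cell cycle back did not all differ alike. Cdkn1b, the CDK inhibitor p27, stood at 22.3 CPM in Kdm5b high and 14.6 CPM in Kdm5b low cells (log2 ratio 0.61, 0.21 to 0.98), Btg2, an antiproliferative gene of the p53 pathway, at 24.4 CPM in high and 16.5 CPM in low cells (0.57, 0.19 to 0.92), and its relative Btg1 at 63.8 CPM in high and 47.8 CPM in low cells (0.42, 0.19 to 0.64). Btg2 had 0.28 in thinned cells, 0.13 without the deepest 5% of cells and 0.21 without the top cell of each class, and Btg1 had 0.03 in the split of thinned cells by a Kdm5b UMI. Without the same share of top cells in each class Btg2 had 0.44. Cdkn1a, the CDK inhibitor p21, did not share this, at 272.7 CPM in high and 283.7 CPM in low cells (-0.06, -0.16 to 0.05). Among the cyclins, Ccnd2 stood at 1265 CPM in high and 1446 CPM in low cells (-0.19, -0.24 to -0.14), and Ccnd1 at 63.1 CPM in high and 59.0 CPM in low cells (0.10, -0.13 to 0.32). The list of cyclins, CDKs and inhibitors had a median of 0.12, with 3 of 12 members higher (all genes 6.76%) and 1 lower (all genes 2.69%) past 0.32. Of the 3, Cdkn1b and Btg2 reached 20 CPM only in Kdm5b high cells.

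The list of PI3K signalling, FOXO and quiescence genes had a median of 0.20 over 6 members. All 6 were above 0 and 2 were past 0.32 (all genes 6.76%). Sesn3, at 0.07, crossed to the other side with TMM and DESeq2 scaling, and Rictor, at 0.22, had -0.01 in thinned cells. Cited2, a coregulator that competes with HIF for p300, stood at 183.5 CPM in Kdm5b high and 138.2 CPM in Kdm5b low cells (0.41, 0.28 to 0.54), and Tsc22d1, a leucine zipper regulator linked to growth arrest, at 88.2 CPM in high and 66.5 CPM in low cells (0.41, 0.22 to 0.59). Tsc22d1 had 0.30 with cluster weighting and 0.11 in the split of thinned cells by a Kdm5b UMI. Cited2 was higher in both clusters, at 158.3 CPM in high and 123.0 CPM in low cells of C3 and at 246.6 CPM in high and 152.1 CPM in low cells of C1. The summed level of the list exceeded the 90th percentile of Kdm5b low cells in 28.6% of Kdm5b high cells (26 of 91, 95% interval 19.6 to 39.0).

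Most pigment genes differed little. The pigment and melanosome list had a median of 0.05 over 16 members, near that of all genes, with 1 member of 16 higher (all genes 6.76%) and 1 lower (all genes 2.69%) past 0.32. Tyr, whose enzyme starts the synthesis of melanin, stood at 103.9 CPM in Kdm5b high and 82.6 CPM in Kdm5b low cells (0.33, 0.16 to 0.50), and Gpr143, a melanosomal receptor, at 19.2 CPM in high and 30.6 CPM in low cells (-0.67, -1.09 to -0.28). Gpr143 reached 20 CPM only in Kdm5b low cells. With cluster weighting the log2 ratio of Tyr was -0.04 and that of Pax3 0.25, and Gpr143 had 0.27 in the split of thinned cells by a Kdm5b UMI. Pax3, which activates Mitf in the melanocyte lineage, stood at 163.2 CPM in high and 122.4 CPM in low cells (0.42, 0.28 to 0.55), or 0.23 in thinned cells, and Mitf, the master regulator of that lineage, at 115.4 CPM in high and 100.6 CPM in low cells (0.20, 0.03 to 0.36), or 0.09 in thinned cells. The submitters' MITF score had a median of 0.19 in Kdm5b high and 0.15 in Kdm5b low cells, with quartiles of -0.08 and 0.36 in high cells and of -0.12 and 0.37 in low cells.

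Mitochondrial respiration, for which Kdm5b high cells are known in human melanoma, had transcripts at similar levels in both classes. The nuclear-encoded respiratory chain list had a median of -0.01, with 0 of 47 members past 0.32 in either direction. Transcripts of the mitochondrial genome had a median of -0.08, with 10 of 12 below 0 and none past 0.32, and summed to 51187 CPM in Kdm5b high and 55056 CPM in Kdm5b low cells. Glycolysis genes had a median of 0.03 over 10 members, with Tpi1 and Aldoa, both enzymes of the pathway, at 0.26 each and none past 0.32.

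Other chromatin regulators of the same mark with 20 CPM or more were close between the classes. Kdm5a, the paralog of Kdm5b, stood at 62.1 CPM in Kdm5b high and 53.8 CPM in Kdm5b low cells (0.21, -0.02 to 0.43), and Kdm1a, the other main H3K4 demethylase, at 35.9 CPM in high and 29.0 CPM in low cells (0.31, 0.00 to 0.60). The H3K4 methyltransferase complexes had a median of 0.01 over 5 members with none past 0.32, and the NuRD and HDAC corepressors, with which the Kdm5b protein is known to associate, 0.07 over 17 members with none past 0.32. Of the methyltransferase list below 20 CPM, Kmt2d stood at 13.6 CPM in high and 8.6 CPM in low cells (0.66, 0.15 to 1.15). Kdm6a stood at 15.7 CPM in high and 10.0 CPM in low cells (0.64, 0.16 to 1.09). Kmt2b and Paxip1 lay the other way, each at -0.51 with an interval that includes 0. Of the genes next to Kdm5b on chromosome 1 with 20 CPM or more, Cyb5r1, a reductase, stood at 88.6 CPM in high and 74.5 CPM in low cells (0.25, 0.06 to 0.44), or 0.045 in thinned cells, and Adipor1, an adiponectin receptor, at 185.5 CPM in high and 176.0 CPM in low cells (0.08, -0.05 to 0.20). Rabif, a Rab-interacting protein, stood at 23.7 CPM in high and 26.6 CPM in low cells (-0.16, -0.54 to 0.19). Below 20 CPM, Klhl12, an adaptor of a ubiquitin ligase, stood at 12.9 CPM in high and 8.61 CPM in low cells (0.58, 0.05 to 1.08), and between 0.47 and 0.78 under the alternatives. Ppp1r12b, a regulatory subunit of myosin phosphatase, stood at 5.23 CPM in high and 2.71 CPM in low cells (0.95, 0.06 to 1.73), or 0.22 in the split of thinned cells by a Kdm5b UMI. Ube2t lay the other way, at 2.79 CPM in high and 4.38 CPM in low cells (-0.65, -1.89 to 0.36). Ptpn7, below 1 CPM in both classes, had 1.57 (-1.68 to 3.84). The neighbours Platr1, Lgr6 and Syt2 were at 0 in Kdm5b high cells.

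**Figure D4:**
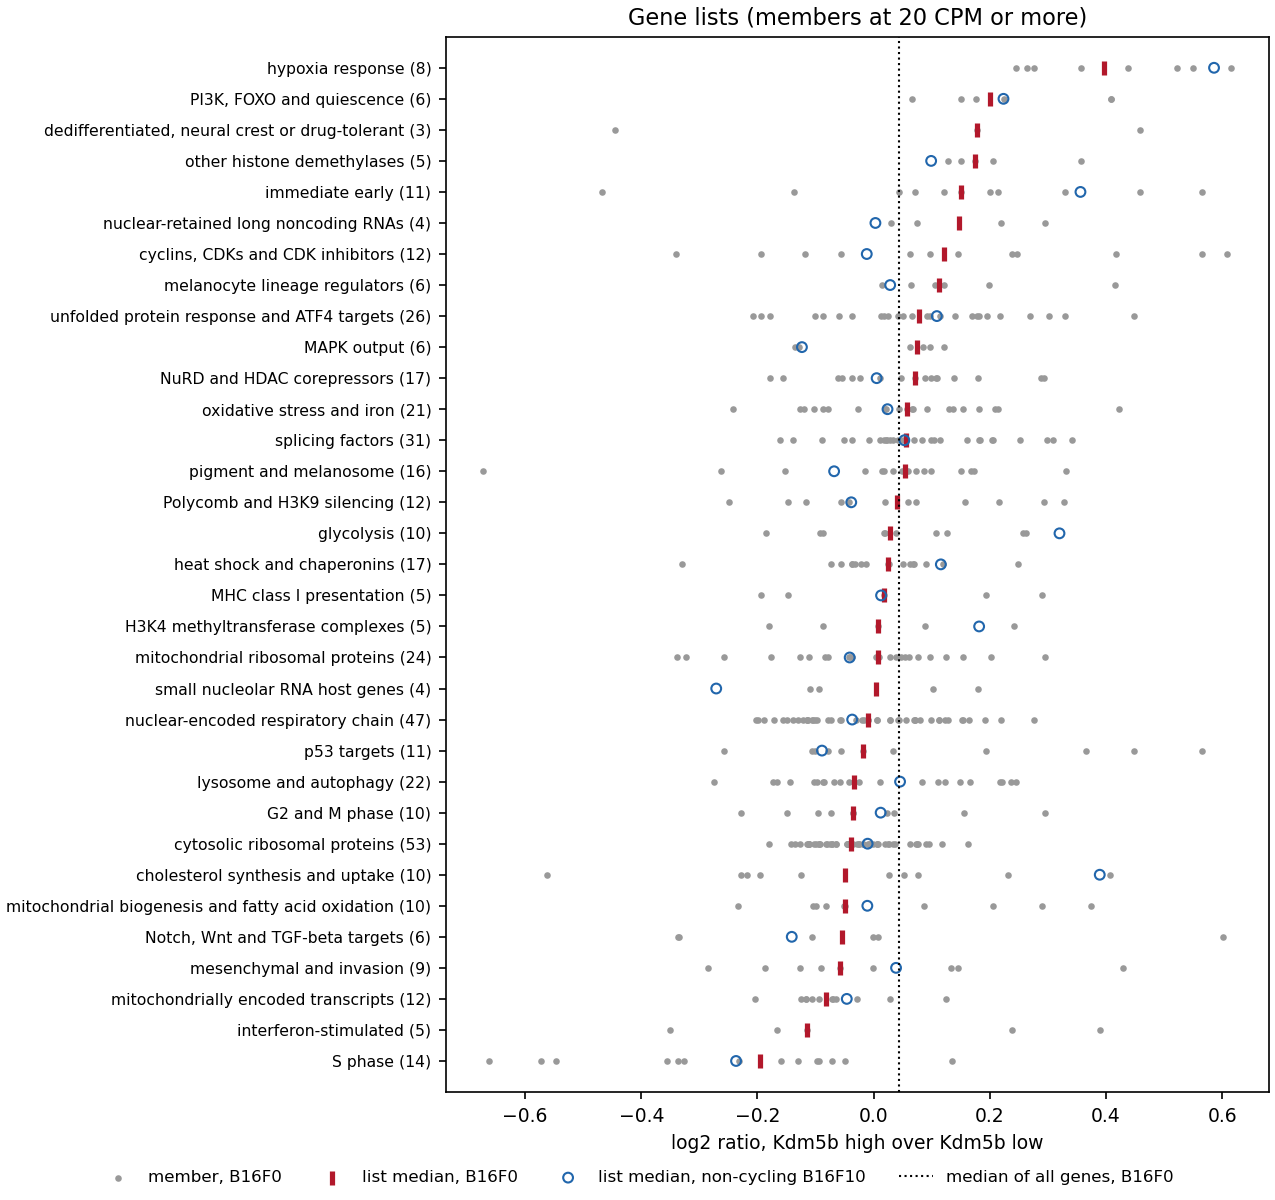
The log2 ratio of Kdm5b high over Kdm5b low cells for each list member with 20 CPM or more (grey) in non-cycling B16F0, with the list median in red, the same median in non-cycling B16F10 as an open circle and the number of B16F0 members in brackets. The hypoxia response list lies highest (0.40, with 0.59 in B16F10) and the S phase list lowest (-0.20, with -0.24 in B16F10), and the dotted line is the median of all genes (0.04).

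The same classes exist in cells that this comparison did not use. In non-cycling B16F10, with 77 Kdm5b high and 267 Kdm5b low cells of the other library, the hypoxia list had a median of 0.59, with 10 of 12 members past 0.32 (all genes 7.15%), and the S phase list -0.24, with 6 of 15 lower (all genes 4.29%). Ero1l stood at 339.0 CPM in Kdm5b high and 157.9 CPM in Kdm5b low cells there, a log2 ratio of 1.10 (0.98 to 1.23). For Maoa, Arfgef3 and Nav1 the B16F10 interval includes 0, and Rad54l, below 5 CPM there, and Ccl5 lay the other way. Maoa had 25.9 CPM in high and 21.8 CPM in low cells of B16F10 (0.25, -0.18 to 0.67), Arfgef3 67.0 CPM in high and 62.1 CPM in low cells (0.11, -0.15 to 0.36), Nav1 36.6 CPM in high and 39.98 CPM in low cells (-0.13, -0.48 to 0.21), Rad54l 3.70 CPM in high and 2.52 CPM in low cells, and Ccl5 12.3 CPM in high and 1.26 CPM in low cells. Glycolysis differed too, with a median of 0.32 in B16F10 and 7 of 15 members higher. The difference between the lines was not tested. The B16F10 ratios, and those in cycling B16F0 cells below, are plain ratios of summed CPM. No alternative for depth, cluster or top cells was run for them.

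In cycling B16F0 cells, with 20 Kdm5b high and 1391 Kdm5b low cells, the S phase list had a median of -0.82, with 27 of 32 members lower (all genes 18.1%), while the hypoxia list stood at -0.35, with 1 of 5 members higher (all genes 20.1%) and 3 lower. The G2 and M phase list had a median of 0.39 there. Of the 24 genes at the ends in non-cycling B16F0, 21 had the same sign in cycling B16F0 and 16 in non-cycling B16F10. The share of same signs over all genes was not computed. Over the 2553 genes at 50 CPM, the Pearson correlation of the log2 ratios was 0.31 with cycling B16F0 and 0.087 with non-cycling B16F10. A split inside the Kdm5b low cells after thinning compared 181 cells with a Kdm5b UMI and 867 without. Ero1l stood at 170.3 CPM in low cells with a Kdm5b UMI and 135.1 CPM in those without (log2 ratio 0.33), Rad54l at 53.7 CPM with and 65.3 CPM without (-0.28), and Maoa at 54.1 CPM with and 55.6 CPM without (-0.04). Those cells are the ones the Kdm5b high class was compared with.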

How the data were processed

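The submitters' processing notes name Cell Ranger 3.0.0, Seurat 3.0 and the build mm10, with no role or order. The authors deposited raw UMI counts per gene and cell, natural log values (the log of 1 plus counts per 10000, recomputed with a largest difference of 6.22e-15) and per cell classes and scores, per the file headers. The sources used here do not say how those classes were made. The non-cycling cells and both Kdm5b classes come from that table. All its cells were kept and no doublet caller was run. Leaving out the deepest 5% of cells is the alternative that bears on doublets.

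Counts were summed over the cells of a class and divided by the class total (CPM). Log2 ratios carry exact conditional binomial 95% intervals. In the 2867229 UMIs of Kdm5b high and 38322848 of Kdm5b low cells, a count of 0 allows up to 3 counts, which are 1.05 CPM in Kdm5b high and 0.0783 CPM in Kdm5b low cells. No test was made, since cells of a library are no replicates. Genes that reached 50 CPM in either class were counted at 1.5-fold, and members of 40 lists that reached 20 CPM at a log2 ratio of 0.32. A gene could thus pass the minimum through its higher class alone. Followed were the 12 genes at either end, 3 members per list, 17 fixed genes and the neighbours of Kdm5b, and not all are given above. The fixed genes not given had log2 ratios of -0.61 (Myc), -0.30 (Mki67), -0.06 (Vim), 0.08 (Malat1), 0.22 (Neat1), 0.11 (Kdm5c), 0.20 (Ppargc1a) and 0.18 (Hspa5). Myc, Mki67, Kdm5c and Ppargc1a were below 20 CPM. Further list members, and genes at 200 CPM or at 20 to 50 CPM and 2-fold, were named after their values were seen. The cells and lists were chosen with earlier results of these data known. Alternatives included TMM (edgeR 4.0.16), DESeq2 1.42.0 size factors, thinning and weighting. Thinning was a single random draw, and its ratios rest on fewer molecules and carry no interval. The ratio step was tested on simulated Poisson counts. Those were independent draws for class totals without molecules clumped in single cells, so they cannot show how clumping affects the intervals. Work was done in R 4.3.3 and in Python 3.11.15 with pandas 2.3.3, scipy 1.17.1 and numpy 2.4.6. Positions are from GENCODE M21.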

Additional observations from a re-analysis of the deposited data

How the results depend on the processing

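The 91 Kdm5b high cells hold 2867229 UMIs in 1 library with no replicate, and intervals widen towards 20 CPM. No paired analysis was possible because each line has 1 library. No alternative run turned the sign of the 6 genes at 1.5-fold. Of 163 genes followed, 43 turned sign under at least 1 alternative, of which 21 had a log2 ratio of 0.2 or more either way as reported, and 2341 of 2607 of their values stayed within their interval. Of the 59 genes in the text past 0.32 with 20 CPM or more, 43 stayed past it in thinned cells, 51 with depth weighting, 53 with TMM, 50 without each gene's top cell, 39 with cluster weighting, 32 with weighting by depth and cluster, 18 in the split of thinned cells by a Kdm5b UMI and 11 under every alternative. Without the same share of top cells in each class, 55 stayed past it. The hypoxia median ranged from 0.25 to 0.52 and the S phase median from -0.34 to -0.17 over the alternatives. The causes of the shifts below were not tested.

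For genes at 1.5-fold, 3 higher and 3 lower as reported, thinned cells gave 9 and 5, TMM 1 and 6, DESeq2 size factors 1 and 5, the split of thinned cells by a Kdm5b UMI 1 and 1, weighting by cluster 0 and 1, weighting by state 0 and 1, and weighting by depth and cluster 1 and 1. A minimum of 20 CPM gave 29 and 18, of 100 CPM 1 and 0, and no minimum 1685 and 2752. Higher genes numbered 1 where the total left out mitochondrial and ribosomal protein transcripts, 1 without cluster F10 cells, 0 without each gene's top cell and 0 at 2-fold. Without the same share of top cells in each class they numbered 2. Of the lists, 6 had medians 0.1 or more above that of all genes and 4 that far below. Those above became 3 without each gene's top cell, 3 without the same share of top cells, 3 with cluster weighting and 3 with all members. Those below became 2 with thinning, 2 in the split of thinned cells, 7 without the deepest 5% of cells, 8 without each gene's top cell, 7 without the same share of top cells and 7 with all members. The interferon-stimulated median, -0.11 over 5 members, turned to 0.21 with thinning, 0.054 without the same share of top cells, 0.20 in the split of thinned cells and 0.16 with all members. The alternatives on cluster F10, on the same share of top cells, on depth with cluster, and on cells with 1 Kdm5b UMI were chosen after seeing the data.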

Other observations

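Below 50 CPM, 3 genes with at least 20 CPM in Kdm5b high cells were at least 2-fold higher there, and they were picked after their values were seen. Mgll, which releases fatty acids from monoacylglycerols, stood at 37.3 CPM in Kdm5b high and 16.9 CPM in Kdm5b low cells (log2 ratio 1.14, 0.83 to 1.44), and in non-cycling B16F10 at 2.47 CPM in high and 9.62 CPM in low cells. Grb14, an adaptor that restrains insulin receptor signalling, stood at 20.6 CPM in high and 7.80 CPM in low cells (1.40, 0.97 to 1.81), and in B16F10 at 135.2 CPM in high and 86.4 CPM in low cells (0.65, 0.46 to 0.84). With cluster weighting the log2 ratios were 0.76 for Mgll and 1.0 for Grb14, and in the split of thinned cells by a Kdm5b UMI 0.38 for Mgll and 0.49 for Grb14. Gadd45b, a stress and growth arrest gene, had the highest ratio, at 22.3 CPM in high and 3.29 CPM in low cells (2.76), and 49 of its 64 high UMIs came from 1 cell, which held 7 Kdm5b UMIs. Without the top cell of each class it stood at 5.28 CPM in high and 3.16 CPM in low cells. The cell with the most Kdm5b UMIs, 8, likewise held 74 of the 330 Hist1h2bc UMIs of its class.

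The immediate early list had a median of 0.15 over 11 members, with 9 above 0, 3 higher (all genes 6.76%) and 1 lower (all genes 2.69%) past 0.32, and in B16F10 0.36 over 9 members, with 5 higher (all genes 7.15%). Of the unfolded protein response list, 19 of 26 members were above 0 and 2 past 0.32 (all genes 6.76%), with a median of 0.08. The share of all genes above 0 was not computed, and their median was 0.04. The list median was 0.006 with TMM factors and 0.010 with DESeq2 size factors. Jun, an immediate early transcription factor, stood at 54.1 CPM in Kdm5b high and 39.3 CPM in Kdm5b low cells (0.46, 0.21 to 0.70), while Fos, its partner, stood at 17.8 CPM in high and 24.6 CPM in low cells (-0.47, -0.90 to -0.06), and at a log2 ratio of 0.0029 in the split of thinned cells by a Kdm5b UMI. Btg2, also in the immediate early list, reached 20 CPM only in Kdm5b high cells, and Fos only in Kdm5b low cells. B2m, the light chain of MHC class I, stood at 601.3 CPM in high and 492.0 CPM in low cells (0.29, 0.22 to 0.36), and Srxn1, an antioxidant target of Nrf2, at 78.5 CPM in high and 58.5 CPM in low cells (0.42, 0.22 to 0.62). With cluster weighting Srxn1 had 0.21 and B2m 0.19. In cholesterol metabolism, Srebf2, the transcription factor of the pathway, stood at 23.4 CPM in high and 34.5 CPM in low cells (-0.56, -0.94 to -0.21), and Insig1, its feedback inhibitor, at 48.1 CPM in high and 36.3 CPM in low cells (0.41, 0.14 to 0.66). Insig1 had 0.15 without the top cell of each class and 0.18 in cells with at most 8% mitochondrial UMIs, and Srebf2 -0.045 in the split of thinned cells by a Kdm5b UMI. Without the same share of top cells in each class Insig1 had 0.23. Their list had a median of -0.05 over 10 members in B16F0, and 0.39 over 9 in B16F10.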
